A study of Mus musculus with 24 samples.

Results

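The nuclear genes of oxidative phosphorylation described here are a fixed list of 37 gene symbols, taken as rows of the deposited count and TPM tables, out of 21878 genes in the count table. They comprise 13 subunits of complex I, 4 of complex II, 6 of complex III, cytochrome c, 8 of complex IV and 5 of complex V, and were listed by function. RNA was sequenced from 21 carbon-ion-induced thymic lymphomas and from 3 samples labelled as normal thymus, all of female B6C3F1 mice. The labels give the same treatment for both groups, 4 weekly whole-body doses of 1.6 Gy carbon ions from 4 to 5 weeks of age, so they do not state that the thymus donors were left unirradiated, and the mark "7W" in the thymus names is not explained. The suspensions were of lymphoma cells or thymocytes. Columns of the filtered tables that the authors deposited name 11 lymphomas as mutated in Ikzf1 and 10 as not mutated. How mutations were called could not be read from the labels or files. Ikzf1 encodes Ikaros, a zinc finger regulator of lymphocyte development. The labels do not tie lymphomas to single animals, and the p-values measure only the spread between these samples. Both sets and the thymus carry the same label for tissue, strain, sex and treatment, and the questions addressed are how the lymphomas differ from thymus and how the sets differ from each other.

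Oxidative phosphorylation takes place in the inner mitochondrial membrane. Complexes I and II pass electrons from NADH and succinate to ubiquinone, complex III passes them on to cytochrome c, and complex IV passes them to oxygen, while complex V uses the resulting proton gradient to make ATP. Most subunits are encoded in the nucleus and imported, and a small group of core subunits of complexes I, III, IV and V is encoded by mitochondrial DNA. Cycling thymocytes and T-cell lymphomas need both respiration and glycolysis, and the transcription factor Myc is known to promote the expression of many mitochondrial genes.

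Total counts were 15 to 36.6 M (M, 1e+06 counts) per lymphoma library and 24.5 to 27.5 M per thymus library. The count table held 0 mitochondrially encoded genes, so only the nuclear part of each complex is described. Of the 37 genes, 36 had enough counts to be tested. The exception was Ndufs3, a core subunit of complex I, with 0.521 TPM ± 0.297 (SD, n = 21) in lymphomas and 0.525 TPM ± 0.284 (SD, n = 3) in thymus. Its annotated gene overlaps Kbtbd4, which had 0 to 5 counts per library, and no label or file header says how reads shared by overlapping genes were counted, so these values are not read as a level. Another coding gene overlaps 11 of the 37 genes in the annotation.

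Several properties of the libraries moved with the groups. Summed over a list of 10 macrophage markers, TPM was 206 to 284 in thymus and 385 to 1359 in lymphomas, and over 8 fibroblast markers it was 3.12 to 5.55 in thymus and 18.1 to 535 in lymphomas. In contrast, 6 neutrophil markers summed to 227 to 409.5 TPM in thymus and 1.06 to 137 in lymphomas, 7 thymic epithelial markers to 29.6 to 71.0 and 1.03 to 9.22, 3 natural killer markers to 21.2 to 31.5 and 0.489 to 13.1, and 9 thymocyte markers to 11995 to 13151 and 3603 to 9458. The 4 B-cell markers summed to 72.3 to 111 TPM in thymus and 2.81 to 237 in lymphomas. Of 5 erythroid markers the summed medians were 302 TPM in mutated, 126 in unmutated lymphomas and 158 in thymus. No gene of these lists was at 0 in every library, and the part of these cells in the results below was not tested. In bulk samples, fewer cells of a type and less RNA per cell cannot be told apart. As reference genes, Myc had 312 TPM ± 99.6 (SD, n = 21) in lymphomas and 92.0 TPM ± 11.9 (SD, n = 3) in thymus, and Ikzf1 had 383 TPM ± 244 (SD, n = 11) in mutated and 226 TPM ± 73.2 (SD, n = 10) in unmutated lymphomas.

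The first question was how much of each complex the lymphomas expressed. TPM (a share of all transcripts that corrects for gene length) was summed over the genes of each complex in each library. Complex V stood at 4299.6 TPM ± 550.1 (SD, n = 21) in lymphomas and 3198 TPM ± 139 (SD, n = 3) in thymus, a ratio of 1.34, and 20 of 21 lymphomas lay above the thymus range. Most of this sum came from Atp5b, with a mean of 2554 TPM in lymphomas and 1754 in thymus. Complex III gave a ratio of 1.21 (2109 TPM ± 223 against 1744 ± 21.9), again with 20 of 21 lymphomas above the thymus range. For complex II the ratio was 1.20 (1324 TPM ± 134 against 1099 ± 29.1), with 19 lymphomas above the thymus range and 2 below it. Complexes IV and I differed less in TPM. Complex IV stood at 8578 TPM ± 1209 in lymphomas and 7511 ± 513 in thymus, a ratio of 1.14, and complex I at 3258 TPM ± 273 and 3092 ± 209.5, a ratio of 1.05, with only 8 of 21 lymphomas above the thymus range. The complex I ratio depends on the scale, and was larger in CPM scaled by TMM, as given in the last section. All 37 genes together took 1.68% of the TPM in thymus.

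**Figure D1:**
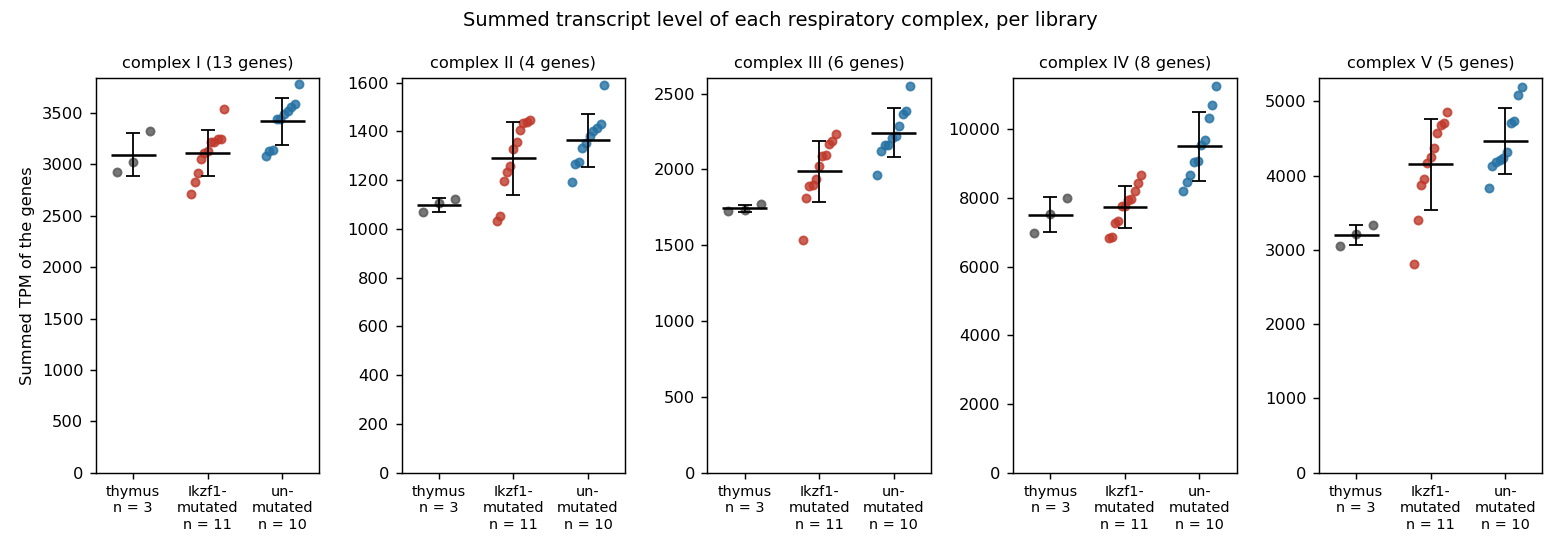
Summed TPM (y axis, from 0) of the genes of each complex in each library (points), with the mean (line) and SD (bar) for thymus, Ikzf1-mutated and unmutated lymphomas. For complexes II, III, IV and V all 10 unmutated lymphomas lie above the thymus range, while complex I of the mutated set (mean 3110.3) is close to thymus (mean 3092).

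Lymphomas as a whole were then compared with thymus gene by gene. Of the 36 genes tested, 8 (22.2%) rose and 0 fell, where 15.4% of all 13121 genes tested rose and 15.4% fell. All adjusted p-values are from edgeR's quasi-likelihood test on counts with Benjamini-Hochberg adjustment over all genes tested, unless another tool is named. The 8 were Ndufa10, Sdha, Sdhb, Uqcrc1, Cox8a, Atp5a1, Atp5b and Atp5c1. Fold changes were above 0 for 32 genes, and their median was 0.31 on the log2 scale, against 0.07 for all genes. At an unadjusted p under 0.05, in either direction, the count was 17 (47.2%), near the 41.7% of all genes. Only Ndufa10 passed in every alternative fit, and without thymus replicate 1, 2 or 3 the count was 2, 1 and 2. All genes called fell as well, from 4044 to 2278, 1929 and 2545. For the 8 genes, single lymphomas left out also changed the count. The count was 4 without lymphoma 13 or 22, 5 without lymphoma 19 and 13 without lymphoma 7. Limma on log2(TPM + 1) called 4 genes higher (Ndufa10, Sdhb, Cox8a and Atp5b), on a scale where 35.6% of all calls were higher, against 50.0% in the edgeR fit. On log2(TPM + 0.1) the median of all genes moved from 0.07 to -0.10, and the median of these genes from 0.31 to 0.22.

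Complex I, the NADH dehydrogenase, held both the largest rise and the genes with negative fold changes. Ndufa10, an accessory subunit of the membrane arm, had 202, 204 and 206 TPM in the thymus libraries and 250.3, 364 and 424 TPM (lowest, median, highest) in lymphomas. For single genes, lymphomas above or below the thymus range are counted in TPM, while fold changes are from counts scaled by TMM. TPM places genes lower against thymus: the median log2 fold change of all genes was -0.06 on log2(TPM + 1), against 0.07. Range counts and fold changes are therefore not on one scale. Every lymphoma lay above every thymus library, as did 6.33% of all genes tested (on CPM scaled by TMM), and Ndufa10 was the only one of the 36 genes to do so. Its log2 fold change was 0.90 (SE 0.14, adjusted p = 6.29e-05). Ndufa1, a short membrane-arm subunit, was the lowest of the complex, with 351, 358 and 339 TPM in thymus against 213, 298 and 378 in lymphomas. Of the lymphomas, 18 were below the thymus range and 3 above it, and the log2 fold change of -0.16 (SE 0.16, adjusted p = 0.487) did not pass. Ndufb3, another membrane-arm subunit, likewise had 18 lymphomas below the thymus range and 0 above it, with a log2 fold change of -0.14 (adjusted p = 0.467). Ndufa2 and Ndufb10 were at -0.10 and -0.06, neither past the threshold.

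The remaining complex I genes lay between 0.05 and 0.36 in log2 fold change without passing. Ndufb8 (0.36, SE 0.17, adjusted p = 0.104), Ndufa9 (0.31, SE 0.13, adjusted p = 0.0757) and Ndufb5 (0.31, SE 0.14, adjusted p = 0.104), all accessory subunits, were the highest of them, with 19, 18 and 15 of 21 lymphomas above the thymus range. The core subunits that carry flavin or iron-sulphur clusters gave 0.29 for Ndufv1, 0.26 for Ndufs1, 0.24 for Ndufv2 and 0.05 for Ndufs7. Ndufs7 was the most even of all genes described, with a coefficient of variation over the lymphomas of 12.1% on CPM scaled by TMM. The median coefficient was 18.5% for the 36 genes and 30.9% for all genes tested.

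Complex II, succinate dehydrogenase, is also an enzyme of the citric acid cycle. Sdhb, its iron-sulphur subunit, had 327, 341 and 337 TPM in thymus and 328, 434 and 555 TPM in lymphomas, with 19 of 21 above the thymus range. It rose by 0.44 on the log2 scale (SE 0.15, adjusted p = 0.0259). The flavin subunit Sdha rose by 0.32 (SE 0.12, adjusted p = 0.0418), from 273 TPM ± 20.8 (SD, n = 3) to 320.2 ± 38.4 (SD, n = 21). The membrane anchors did not pass: Sdhd was at 0.45 (SE 0.18, adjusted p = 0.0603), with 18 lymphomas above and 3 below the thymus range, and Sdhc at 0.16 (SE 0.12, adjusted p = 0.307), with 12 above and 5 below.

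In complex III, 1 of 6 genes (16.7%) rose, near the 15.4% of all genes tested. That gene, Uqcrc1, passed in 16 of 38 alternative fits. Uqcrc1, a core protein, had 11.8, 13.7 and 12.5 TPM in thymus and 11.4, 18 and 28.6 TPM in lymphomas, 18 of them above the thymus range, and rose by 0.64 (SE 0.24, adjusted p = 0.0477). Its partner Uqcrc2 was at 327 TPM ± 20.9 (SD, n = 3) in thymus and 376 ± 55.0 (SD, n = 21) in lymphomas, and its log2 fold change of 0.28 (SE 0.14) did not pass. The cause of the lower level listed for Uqcrc1 was not tested. Cyc1, the cytochrome c1 subunit, was at 0.55 (SE 0.24, adjusted p = 0.0793) although 20 of 21 lymphomas lay above the thymus range. Uqcrb was at 0.39 (adjusted p = 0.0525), Uqcrq at 0.27 and the Rieske protein gene Uqcrfs1 at 0.21. Cycs, the somatic cytochrome c that carries electrons from complex III to IV and is also known for its role in apoptosis, had 12.3, 12.7 and 12.3 TPM in thymus and 9.48, 14.9 and 22.9 in lymphomas. Above the thymus range were 18 lymphomas and below it 3, and the log2 fold change was 0.45 (SE 0.24, adjusted p = 0.157). Cycs is known to have processed pseudogene copies, and whether these bear on its listed level was not tested.

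Complex IV, cytochrome c oxidase, held the most abundant genes after Atp5b. Cox8a, a small membrane subunit, had 839.9, 880.1 and 938 TPM in thymus and 868, 1204 and 1433 TPM in lymphomas. It rose by 0.51 (SE 0.17, adjusted p = 0.0297), with 17 lymphomas above the thymus range and the other 4 within it. Cox6a1, the widely expressed form of a regulatory subunit, was nearly level at 1145 TPM ± 93.9 (SD, n = 3) and 1166 ± 164 (SD, n = 21), with a log2 fold change of 0.11 (SE 0.16, adjusted p = 0.627). Cox4i1, the regulatory subunit that binds ATP, was at 0.12, with 5 lymphomas above and 5 below the thymus range. Between these lay Cox7b at 0.45 (adjusted p = 0.0591), Cox6c at 0.42 (adjusted p = 0.314), Cox5a at 0.41 (adjusted p = 0.108), Cox5b at 0.29 and Ndufa4 at 0.22. Ndufa4 was first assigned to complex I and later found in complex IV. Cox6c had the widest spread over the lymphomas, with a coefficient of variation of 38.2%.

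Complex V, the ATP synthase, had 3 of 5 genes (60%) higher, where 15.4% of all genes tested rose. Atp5b, the catalytic beta subunit, was the most abundant gene of the list, with 1828, 1558 and 1875 TPM in thymus and 1577, 2573 and 3123 TPM in lymphomas. It rose by 0.63 (SE 0.16, adjusted p = 0.00539), and 20 of 21 lymphomas were above the thymus range. Only lymphoma 7, the lowest, fell inside it. Atp5c1, the gamma subunit of the rotor stalk, rose by 0.48 (SE 0.18, adjusted p = 0.0461), and the alpha subunit Atp5a1 rose by 0.62 (SE 0.24, adjusted p = 0.0499). Both are near the threshold, and Atp5c1 passed in 22 and Atp5a1 in 14 of 38 alternative fits. Atp5a1 was listed at 33.9 TPM ± 2.35 (SD, n = 3) in thymus and 49.0 ± 13.9 (SD, n = 21) in lymphomas. Its gene overlaps Haus1, and whether this bears on the listed level was not tested. Atp5o, of the peripheral stalk, was at 0.36 (adjusted p = 0.196) and Atp5d, the delta subunit, at 0.22 (adjusted p = 0.274).

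The lymphomas differed from each other in how many of the 36 genes they held above thymus. These counts are on CPM scaled by TMM. In the mutated set, 5 to 30 genes per library (median 23) lay above the range of the 3 thymus libraries and 0 to 22 (median 4) below it. In the unmutated set, 22 to 35 (median 30) lay above and 0 to 3 (median 1) below. Lymphoma 7 had 22 genes below and 6 above, lymphoma 12 had 21 below and 5 above, and lymphoma 9 had 9 below and 11 above. At the other end, lymphoma 18 had 35 genes above and 0 below. This placement depends on the scale. In TPM, lymphoma 18 lay below the thymus range for Ndufs1 (100.4, against 105 to 117). The same held for Uqcrc2 (256, against 305 to 347). Over all genes tested, 39.2 to 42.2% lay above the thymus range and 40.7 to 45.6% below it in every lymphoma, so the 21 libraries were alike in that respect.

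**Figure D2:**
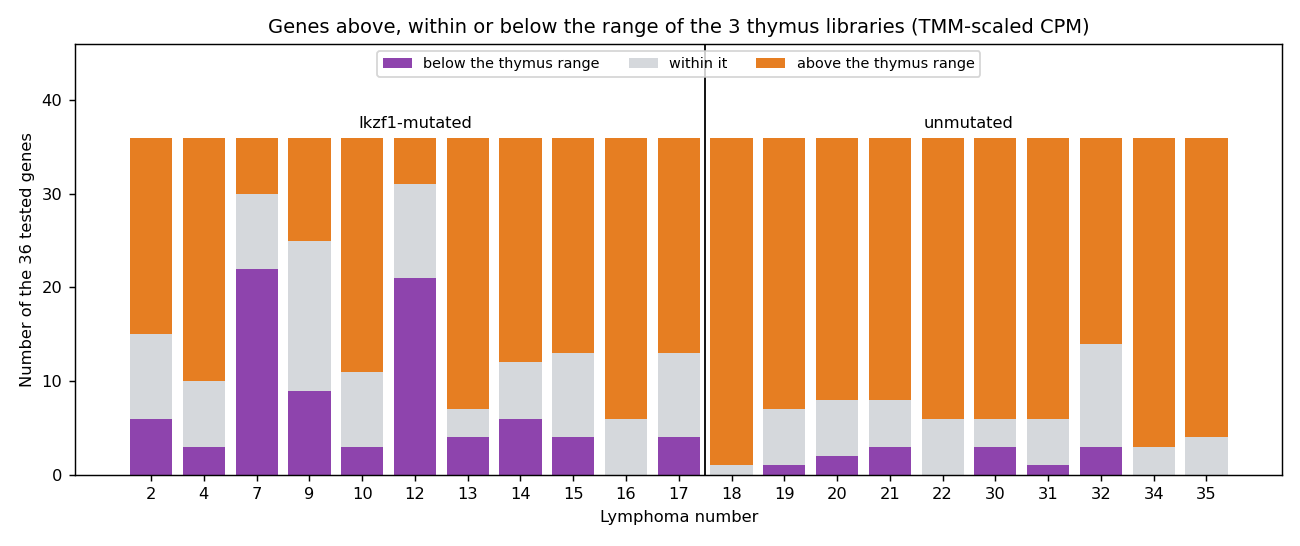
Number of the 36 tested genes (y axis) above, within or below the range of the 3 thymus libraries in each lymphoma (x axis, by number), on CPM scaled by TMM. Lymphomas 7 and 12 of the mutated set have 22 and 21 genes below the range, while no unmutated lymphoma has more than 3.

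Each set was next compared with thymus. Both comparisons use the same 3 thymus libraries. In the unmutated set 21 of 36 genes (58.3%) rose and 0 fell, where 18% of all genes rose. In the mutated set 2 of 36 (5.56%) rose, Ndufa10 and Atp5b, and 0 fell, where 13.1% of all genes rose. The median log2 fold change was 0.44 in the unmutated and 0.19 in the mutated set, against 0.06 and 0.05 for all genes. At an unadjusted p under 0.05, in either direction, the counts were 28 (77.8%) in the unmutated set, where 45% of all genes passed, and 8 (22.2%) in the mutated set, below the 39% of all genes. On log2(TPM + 1), 32.5% of all calls were higher in the unmutated and 39.1% in the mutated set, against 51.0 and 50.2% in the edgeR fit. Without thymus replicate 1 the unmutated count was 10. Without the 7 unmutated lymphomas and the 1 mutated lymphoma in which chromosome 15 genes were raised, it was 14, and the mutated count was 7. The number of all genes called in the unmutated set fell too without these lymphomas, as given in the last section. In the unmutated set Ndufs1, Sdha, Sdhb, Ndufa4, Cox5b, Cox6c, Cox7b and Atp5d then no longer passed, Ndufv1 did, and Cox6c stood at 0.30 (adjusted p = 0.157). The mutated count was 1 without thymus replicate 1 or 2, and 5 without lymphoma 7 or 12. On log2(TPM + 1), limma called Ndufa1 and Ndufb3 lower in the mutated set beside the 2 higher genes, and edgeR called 2 lower without lymphoma 16.

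By complex, the unmutated set rose in 5 of 12 complex I genes (Ndufa9, Ndufa10, Ndufb5, Ndufb8 and Ndufs1), 3 of 4 of complex II (Sdha, Sdhb and Sdhd), 3 of 6 of complex III (Uqcrc1, Uqcrb and Cyc1), 6 of 8 of complex IV (Ndufa4, Cox5a, Cox5b, Cox6c, Cox7b and Cox8a) and 4 of 5 of complex V (Atp5a1, Atp5b, Atp5d and Atp5o). Its largest changes were those of Ndufa10 (0.99, SE 0.14), Cyc1 (0.84, SE 0.17, adjusted p = 0.000582), Atp5a1 (0.82, SE 0.22), Cox6c (0.80, SE 0.20, adjusted p = 0.00304) and Uqcrc1 (0.80, SE 0.24). The corresponding values in the mutated set were 0.81 (SE 0.13, adjusted p = 0.000211) for Ndufa10, 0.23 for Cyc1, 0.41 for Atp5a1, -0.05 for Cox6c and 0.48 for Uqcrc1. Atp5b was close in both sets, at 0.71 (SE 0.17, adjusted p = 0.00233) and 0.55 (SE 0.16, adjusted p = 0.0161). Atp5c1 did not pass in either set (0.46 and 0.49). The plot of both sets shows the unmutated points to the right of the mutated ones for every gene but Atp5c1.

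**Figure D3:**
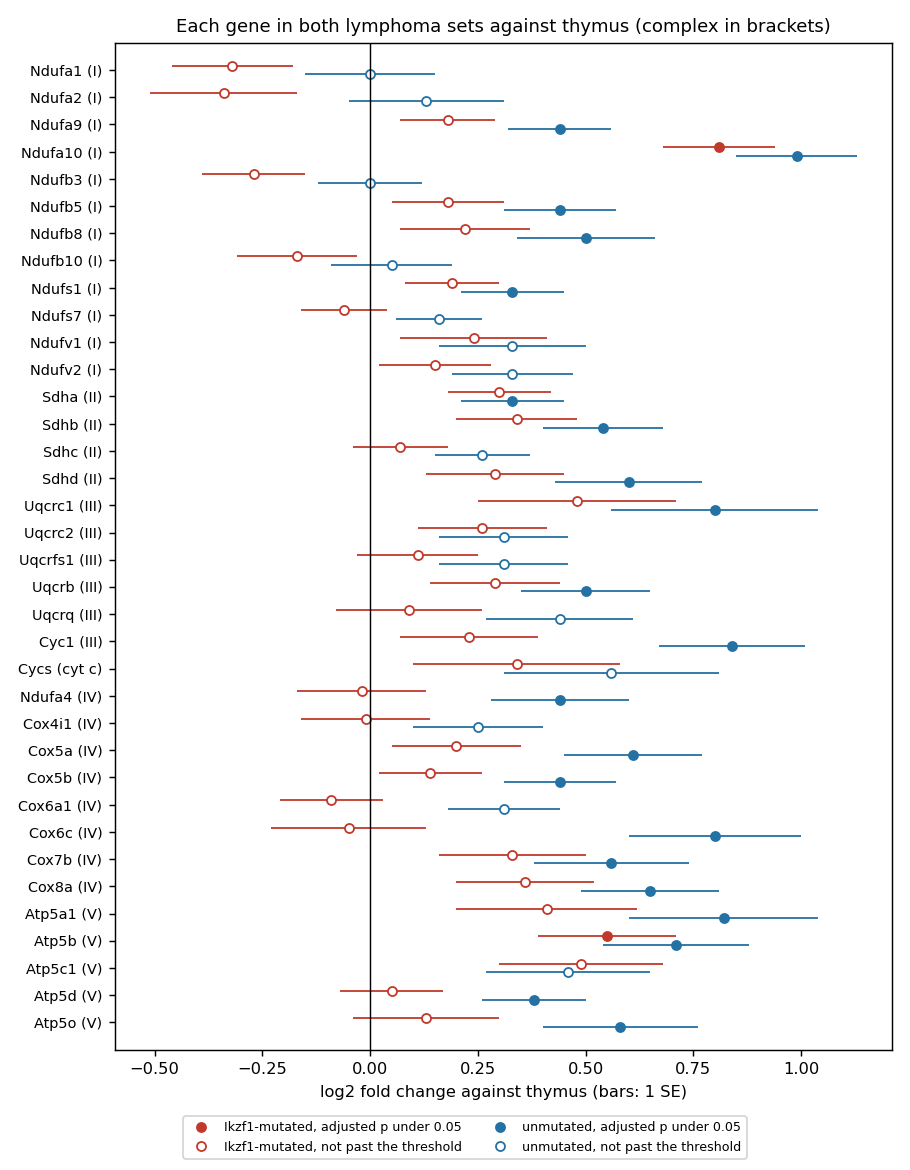
Log2 fold change against thymus (x axis, bars 1 SE) of each of the 36 tested genes in the mutated (red) and unmutated (blue) lymphomas, with filled points for an adjusted p under 0.05. There are 2 filled points in the mutated and 21 in the unmutated set.

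The direct comparison of the sets tests that difference itself. Of the 36 genes, 11 (30.6%) were lower in mutated than in unmutated lymphomas and 0 higher, where 2.95% of all genes were lower and 2.43% higher. The median log2 fold change was -0.26, against 0.00 for all genes, and 35 of 36 were below 0. On log2(TPM + 1), 76.5% of all calls were higher, against 45.2% in the edgeR fit. The TPM ranges of the mutated and unmutated lymphomas overlapped for all 36. The share of all genes with such an overlap is not given here, so nothing particular to these genes is read from it. Cox6c had the largest difference, with 827, 1029 and 1218 TPM (lowest, median, highest) in mutated and 1179, 1691 and 2183 TPM in unmutated lymphomas. Its log2 fold change was -0.86 (SE 0.12, adjusted p = 0.00241). Cyc1 followed, with 281, 387 and 507 TPM in mutated against 434, 581 and 671 TPM in unmutated lymphomas, and a log2 fold change of -0.62 (SE 0.10, adjusted p = 0.0101).

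Complex IV held 5 of the 11 genes. Beside Cox6c these were Ndufa4, Cox5a, Cox6a1 and Cox5b. Ndufa4 had 740.3, 827 and 1046 TPM in mutated and 863, 1162 and 1338 in unmutated lymphomas, and was lower by a log2 fold change of -0.45 (SE 0.10, adjusted p = 0.0194). Cox5a, which faces the mitochondrial matrix, was at -0.41 (SE 0.10, adjusted p = 0.0242), Cox6a1 at -0.40 (SE 0.08, adjusted p = 0.0134) and Cox5b at -0.31 (SE 0.08, adjusted p = 0.0332). In complex V, Atp5o (-0.45, adjusted p = 0.0255) and Atp5d (-0.33, adjusted p = 0.023) were lower, and in complex I Ndufa2 (-0.47, adjusted p = 0.028), Ndufa9 (-0.26, adjusted p = 0.0467) and Ndufs7 (-0.22, adjusted p = 0.0493). Ndufa9 passed in only 9 and Ndufs7 in only 5 of 39 alternative fits, while the other genes of the 11 passed in 22 to 37. None of the 4 complex II genes passed, with values of -0.31 to -0.02. Atp5b was at -0.16 and Ndufa10 at -0.18, neither past the threshold.

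A trend with gene length ran through this comparison. The median log2 fold change of all genes went from -0.20 in the shortest 10% of genes to 0.15 in the longest 10%, with lengths taken from the ratio of counts to TPM. The genes described here are short: their median length was 0.34 of that of the median gene, and 22 of the 36 lay in the shortest 10% and 8 in the next 10%. Of the shortest 10%, 10.2% were called lower. Per library, the median of the shortest 10% minus that of the longest 10%, against thymus, was -0.39 to 0.29 (median -0.10) in mutated, -0.07 to 0.65 (median 0.20) in unmutated lymphomas and -0.19 to 0.24 in thymus. When a smooth trend on length was removed in each library, 2 of the 36 genes (5.56%) remained lower, Cyc1 and Cox6c, where 1.17% of all genes were lower. The median of the 36 was then -0.09, with 30 below 0. Cyc1 stood at -0.47 (SE 0.10, adjusted p = 0.0225) and Cox6c at -0.52 (SE 0.10, adjusted p = 0.0153), and among the 9 genes no longer called Atp5d (adjusted p = 0.0538) was the nearest to the threshold.

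**Figure D4:**
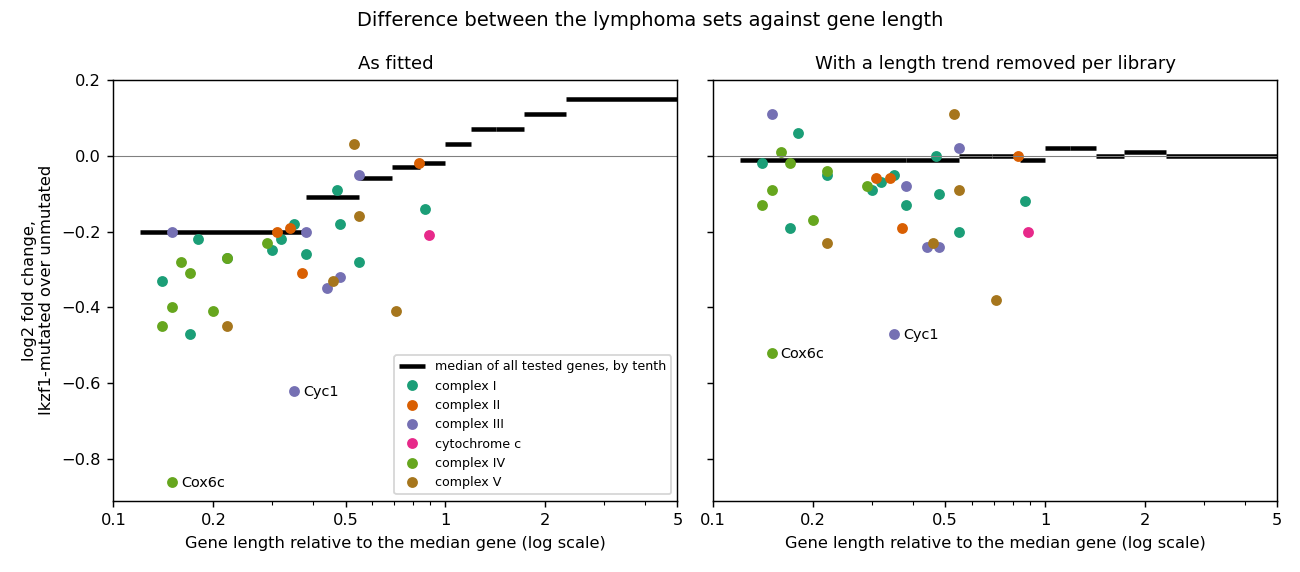
Log2 fold change of mutated over unmutated lymphomas (y axis) against gene length relative to the median gene (x axis, log scale) for the 36 genes (points, coloured by complex), with the median of all tested genes in each 10% of genes by length (black lines). As fitted (left) the medians run from -0.20 to 0.15. With the trend removed (right) they lie near 0, and Cyc1 and Cox6c are the lowest points.

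With the same offset, the comparisons with thymus moved in the other direction for the mutated set. It then had 9 of 36 genes (25.0%) higher, where 13.8% of all genes were: Ndufa10, Ndufb5, Sdhb, Uqcrb, Cox5b, Cox7b, Cox8a, Atp5b and Atp5c1. The unmutated set had 18 (50.0%), where 18.5% of all genes were higher, and all 18 were among the 21 of the fit without the offset. All lymphomas together had 14 (38.9%), where 16.5% of all genes were higher, and shared 7 with the fit without it. In these 3 comparisons 0 of the 36 genes were called lower.

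Cyc1 and Cox6c are the 2 genes of the list on chromosome 15. Cyc1 lies at 76343523 to 76346260 on the plus strand and Cox6c at 35925886 to 35938246 on the minus strand (GRCm38), where Cox6c overlaps Vps13b. The median log2 ratio to thymus of the other expressed chromosome 15 genes was 0.44 to 0.70 in 8 lymphomas and -0.09 to 0.30 in the other 13. Of the 8, 7 were unmutated (lymphomas 18, 20, 22, 30, 32, 34 and 35) and 1 was mutated (lymphoma 12). Cox6c read 1179 to 1324 TPM in the 3 unmutated lymphomas without this rise and 1479.7 to 2183 TPM in the 7 with it. These groups were split by expression from the chromosome that holds Cox6c, so higher values in the 7 were in part built in. Cyc1 read 434 to 470.1 TPM in the 3 and 454 to 671 TPM in the 7. Mutated lymphomas without the rise read 827 to 1218 TPM of Cox6c and 281 to 435 TPM of Cyc1. Lymphoma 12 had 507 TPM of Cyc1, the highest of the mutated set, and 1135 TPM of Cox6c.

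Without the 8 lymphomas, 10 mutated and 3 unmutated ones remained. The sets then differed in 1 of all genes tested and in 0 of the 36 with edgeR, where Cyc1 was at -0.26 (SE 0.11, adjusted p = 0.726) and Cox6c at -0.34 (SE 0.12, adjusted p = 0.675). The median of the 36 was -0.17, or -0.10 with the length offset. These lymphomas were left out after the data had been seen, and fewer samples remained. Leaving out single lymphomas gave 6 to 14 genes lower, with 6 without lymphoma 34 and 7 without lymphoma 18 or 35.

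**Figure D5:**
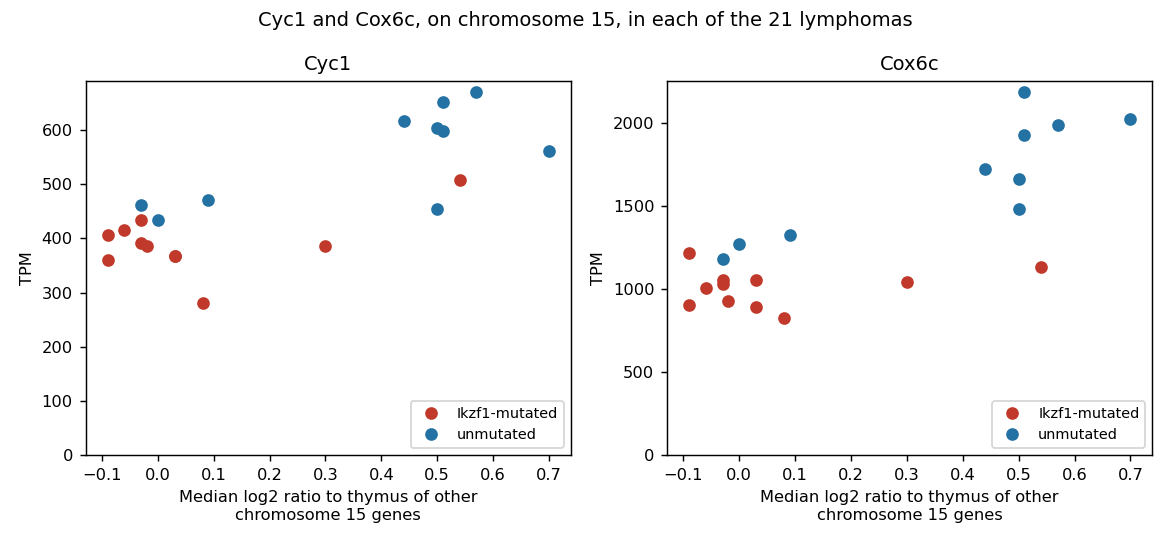
TPM (y axis, from 0) of Cyc1 and Cox6c in each of the 21 lymphomas against the median log2 ratio to thymus of other chromosome 15 genes (x axis), coloured by set. Of the 8 lymphomas to the right of 0.4, 7 are unmutated. The 3 other unmutated lymphomas lie on the left. Their Cox6c is 1179 to 1324 TPM, against 827 to 1218 in the mutated lymphomas on the left. Their Cyc1 is 434 to 470.1 TPM, against 281 to 435.

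Genes that act with these subunits were counted from further lists. Among 23 other complex I subunits tested, 2 rose in lymphomas, Ndufa12 (0.66, adjusted p = 0.0216) and Ndufab1 (0.52, adjusted p = 0.0285), and 1 fell, Ndufs4 (-0.40, adjusted p = 0.0178), and their median was -0.02. Of 12 other complex V subunits 1 rose, Atp5g2 (0.69, adjusted p = 0.0464), with a median of 0.19. These shares of 8.7% and 8.33% higher lie below the 15.4% of all genes that rose. None of the 3 other subunits each of complex III and complex IV passed. Their smallest p-values were those of Uqcr11 (0.35) and Uqcrh (-0.21), and of Cox7c (0.23) and Cox6b1 (0.21). Between the sets 6, 4, 1 and 2 of these other subunits of complexes I, V, III and IV were lower in mutated lymphomas, where 2.95% of all genes were, and 1, 0, 0 and 0 with the length offset, where 1.17% were. Of 9 tissue-restricted isoforms, 5 had too few counts to test, Cox7b2 had 0 counts in every library, and 0 of the other 4 passed. The smallest p-values were those of Cox4i2 (2.35, adjusted p = 0.122), a form known from lung, and the muscle form Cox6a2. Cox6a2 ranged from 0.5 to 108 TPM over all libraries, and its log2 fold change of 2.98 (adjusted p = 0.149) did not pass.

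Assembly factors were called in both directions, as were all genes, of which 15.4% rose and 15.4% fell. For complex I, 4 of 13 rose and 1 fell, including Ndufaf4 (1.14, adjusted p = 0.000314), Ndufaf3 (-1.18, adjusted p = 0.000448) and Acad9 (0.53, adjusted p = 0.00247). For complex IV, 4 of 18 rose and 4 fell (22.2% each), near those shares, including Pet100 (-1.22, adjusted p = 0.000649), the haem A synthase Cox15 (0.52, adjusted p = 0.00722) and the copper chaperone Sco1 (0.39, adjusted p = 0.00985). For complex III, 0 of 6 rose and 2 fell, Lyrm7 (-1.05) and Uqcc3 (-0.67). Tmem70 of complex V rose (0.40, adjusted p = 0.0206), and 0 of 4 for complex II passed, with Sdhaf4 at -0.34 and Sdhaf2 at -0.14.

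Genes of substrate supply, import, transport and mitochondrial translation were counted next, again beside the 15.4% of all genes that rose. Of 20 genes of pyruvate oxidation and the citric acid cycle, 9 (45%) rose and 0 fell (median 0.32), led by fumarase Fh1 (0.92, SE 0.17, adjusted p = 0.000289), Suclg2 (1.28, SE 0.27, adjusted p = 0.00101) and Idh3a (0.72, SE 0.19, adjusted p = 0.00571). Of 19 genes of protein import and folding, 10 (52.6%) rose and 0 fell (median 0.53). They include Timm9 (0.86), the import receptor Tomm70a (0.89) and the chaperonin Hspd1 (1.10, SE 0.27, adjusted p = 0.00379). Hspd1 went from 351 TPM ± 53.7 (SD, n = 3) to 703 ± 175 (SD, n = 21). Of 6 carriers and porins, 3 (50%) rose, the phosphate carrier Slc25a3 (0.68, adjusted p = 0.00217), Vdac2 (0.53) and the ADP/ATP carrier Slc25a5 (0.52). Of 76 mitochondrial ribosome genes 9 (11.8%) rose, below the share of all genes, and 1 fell (median 0.19), among them Mrps27 (0.68), Mrpl3 (0.47) and Mrpl24 (-0.54). The lists were not tested against each other.

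Among 14 regulators of the mitochondrial genome and of biogenesis, 1 (7.14%) rose and 2 (14.3%) fell, at or below the 15.4% of all genes in each direction. Pprc1, a coactivator of the PGC-1 family, rose by 1.09 (SE 0.18, adjusted p = 0.000109), from 22.5 TPM ± 1.68 (SD, n = 3) to 45.3 ± 8.92 (SD, n = 21). Nrf1, a transcription factor known to bind promoters of respiratory genes, fell by 0.53 on the log2 scale (SE 0.10, adjusted p = 0.000485), and Yy1 fell by 0.57 (SE 0.21, adjusted p = 0.0404). None of the 14 passed between the sets.

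Promoters of 3 genes that rose are shown, since the motif of the Nrf1 protein is a classical element of this gene class. They are from RefSeq (GRCm38.p6), run from 250 bases before to 50 after the annotated start, and are written 5′ to 3′ on the strand of the gene, with matches to the 4 motifs searched on both strands in capitals. The motifs were GCGCANGC (Nrf1), CCGGAAGT (ETS factors), AAGATGGC (Yy1) and CACGTG (E-box). Sdhb is on chr4:140961021-140961320 (plus strand), Uqcrc1 on chr9:108936398-108936697 (plus strand) and Ndufa10 on chr1:92473709-92474008 (minus strand).
Sdhb: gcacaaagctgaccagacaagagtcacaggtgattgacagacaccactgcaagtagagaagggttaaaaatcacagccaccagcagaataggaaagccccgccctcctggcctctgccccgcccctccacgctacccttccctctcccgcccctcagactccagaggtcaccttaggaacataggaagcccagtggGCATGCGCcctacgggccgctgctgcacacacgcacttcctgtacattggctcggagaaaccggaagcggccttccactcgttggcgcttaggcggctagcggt
Uqcrc1: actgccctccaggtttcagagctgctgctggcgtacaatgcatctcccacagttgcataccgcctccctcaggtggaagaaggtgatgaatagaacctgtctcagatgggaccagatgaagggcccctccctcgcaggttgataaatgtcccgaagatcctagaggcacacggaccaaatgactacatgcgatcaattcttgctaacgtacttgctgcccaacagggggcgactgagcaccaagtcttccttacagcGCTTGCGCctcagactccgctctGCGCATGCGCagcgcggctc
Ndufa10: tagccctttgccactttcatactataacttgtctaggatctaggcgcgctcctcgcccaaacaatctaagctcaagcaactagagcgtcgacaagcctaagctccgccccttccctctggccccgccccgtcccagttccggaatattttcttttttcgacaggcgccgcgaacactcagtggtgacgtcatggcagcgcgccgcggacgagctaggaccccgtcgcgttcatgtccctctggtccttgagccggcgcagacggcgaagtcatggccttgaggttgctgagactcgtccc
Sdhb held 1 match to the Nrf1 motif and Uqcrc1 held 3, of which 2 overlap, while none of the 4 motifs is in the Ndufa10 window.

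A promoter entry was found for 27 of the 37 genes. Those with no entry were Ndufa2, Ndufs1, Sdhc, Uqcrc2, Uqcrb, Uqcrq, Cyc1, Cox4i1, Cox6c and Atp5a1. The Nrf1 motif was in 9 of the 27 (33.3%), those of Atp5c1, Atp5o, Cox6a1, Cycs, Ndufb10, Sdha, Sdhb, Sdhd and Uqcrc1, against 21.7% of tested genes with an entry and 9.95% of all 32851 promoters. The Yy1 motif was in 3 (11.1%, Ndufa9, Ndufb8 and Ndufs7), against 5.08% of tested genes and 2.75% of all promoters. The ETS motif was in 2 (Cox8a and Ndufs3) and the E-box in 1 (Ndufv1), that is 7.41 and 3.70%, against 8.73 and 11.4% of tested genes and 3.89 and 7.15% of all promoters. The shares of the 27 are per gene, with a match in any of its entries, while the shares of all promoters are per promoter. These are matches of letters in a fixed window, and 12 of the 27 genes had none.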

How the data were processed

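Reads were trimmed with cutadapt 1.9.1, aligned with HISAT2 2.0.1 and counted with HTSeq 0.6.1 on GRCm38.p6, per the submitters' processing notes, which also name SAMtools and edgeR. The settings and strand of counting are not stated there. The deposited tables hold raw counts per gene, as whole numbers, and TPM values made by the authors. Counts were tested with edgeR 4.0.16 (TMM, filterByExpr, quasi-likelihood test, adjusted p threshold 0.05) in R 4.3.3, in a fit of lymphoma against thymus and a fit of both sets and thymus. TPM was used for levels. Alternatives used DESeq2 1.42.0, limma 3.58.1, other normalizations and filters, offsets from a smooth trend of 5 degrees of freedom on length or GC content, and each library left out. Chromosome 15 medians used genes with a mean CPM of at least 10 and log2(CPM + 0.5). Gene positions and overlaps came from the GENCODE annotation of GRCm38. Summaries and plots used Python 3.11.15, pandas 2.3.3, numpy 2.4.6 and matplotlib 3.10.9. The fitting code was tested on simulated data.

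All 37 genes are described. Genes of other lists are named where their p-value was smallest in lymphoma against thymus, up to 3 past the threshold, or the 2 nearest to it where none passed, and a list gene chosen after its values were seen is Cox7b2. The genes and lists were chosen with earlier results of these data known, so nothing here is independent support for a pattern already seen. Libraries held 15 to 36.6 M counts (M, 1e+06), and that number limits the precision of low genes.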

Additional observations from a re-analysis of the deposited data

Results flagged for a closer look

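In the unmutated set of 10 lymphomas, 3 of 43 groups of values had 1 library far from the others by Dixon's 95% criterion, which chance passes in about 1 in 20 groups. Cox4i1 was at 2732 TPM in lymphoma 35, the highest of the set. Atp5a1 was at 96.1 TPM in lymphoma 21, again the highest. Atp5c1 was at 405 TPM in lymphoma 20, the lowest.

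The effect against thymus differed between the sets in 11 genes by edgeR's test of mutated against unmutated lymphomas. On the log2 scale these differences were -0.86 for Cox6c, -0.62 for Cyc1, -0.47 for Ndufa2, -0.45 for Ndufa4 and for Atp5o, -0.41 for Cox5a, -0.40 for Cox6a1, -0.33 for Atp5d, -0.31 for Cox5b, -0.26 for Ndufa9 and -0.22 for Ndufs7. With the length offset only Cyc1 and Cox6c passed, and without the 8 lymphomas with raised chromosome 15 genes none of the 11 did.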

How the results depend on the processing

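In lymphoma against thymus, 8 of the 36 genes were higher. The count was 13 with DESeq2, 14 with the length offset, 4 with limma on log2(TPM + 0.1) and on log2(TPM + 1), with or without a filter, 16 without the lymphomas with raised chromosome 15 and with the length offset, and 1 to 13 with 1 library left out, where all genes called numbered 1929 to 4435. In the mutated set against thymus, 2 were higher. The count was 5 with DESeq2, 8 with the length and GC offset, 9 with the length offset, 7 without the raised lymphomas, 12 without them and with the offset, and 1 to 5 with 1 library left out. There 0 were lower, but 2 in the 3 limma fits on TPM and 0 to 2 with 1 library left out, and all genes called were 1441 to 3904. In the unmutated set against thymus, 21 of the 36 genes were higher, 14 without the raised lymphomas, with or without the offset, and 10 to 25 with 1 library left out. All genes called, 4642, became 2757 without the raised lymphomas, 2900 with the offset too, and 2856 to 4895 with 1 library left out.

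Between the sets, 706 genes were called. The count was 1275 with DESeq2, 316 with the length and GC offset, 276 with the length offset, 420 with limma on log2(TPM + 1) with no filter, 388 with only the groups compared, 1 without the raised lymphomas, with or without the offset, and 301 to 1221 with 1 library left out. Of the 36 genes, 11 were lower. The count was 2 with either length offset, 7 with limma on log2(TPM + 0.1) or log2(TPM + 1), 4 with no filter, 0 without the raised lymphomas, with or without the offset, and 6 to 14 with 1 library left out. Ndufs7 turned to 0.04 without the raised lymphomas and with the length offset, the 1 reversal among 1630 refits of called genes. The ratio of lymphoma to thymus for complex I was 1.05 in TPM and 1.18 in CPM scaled by TMM. Where no cause is shown by an alternative's own construction, the cause was not tested. Leaving out the raised lymphomas, which was chosen after seeing the data, also leaves fewer samples. No paired analysis was possible because the groups compared share fewer than 2 replicate numbers: lymphoma and thymus share only the number 2, and the sets share none. Ndufs3 had the fewest counts, 0 to 10 per library, which are not read as a level. Uqcrc1 had 163 to 422 counts and Cycs 214 to 922, and the cause of these low counts was not tested.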
